A study of Mus musculus with 11 samples.

Results

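Lipid handling in cultured microglia was followed through 10 genes, picked by symbol from a table of raw counts for 16934 genes. They are the lipid carrier Apoe, the export pumps Abca1 and Abcg1, the plasma transfer protein gene Pltp, the nuclear receptor gene Nr1h3, the oxysterol enzyme gene Ch25h, the uptake genes Lpl and Fabp5, and the storage genes Soat1 and Plin2. All 10 had counts, and all 10 were among the 11276 genes abundant enough to test. They were listed for their known roles in lipid transport and storage, with earlier results of these data already known.

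Microglia are the resident macrophages of the brain and take up lipid from debris and dying cells. Excess cholesterol is either stored as esters in lipid droplets or pumped out by ABC transporters onto lipoproteins built on apolipoprotein E. Oxysterols activate the liver X receptors (LXR), which switch on the genes of this export route, and in brain the particles are made mainly by astrocytes and by activated microglia.

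All microglia were primary, unpassaged cells from C57BL/6 pups aged 0 to 3 days, grown for 7 to 10 days in serum-containing medium. In the first group (n = 4 libraries) they were kept for 6 h with primary cortical neurons, 14 days in vitro, that had taken up Atto488-labelled α-synuclein fibrils (0.1 µM over 16 h) and had been rinsed. In the second (n = 3) the neurons had received no fibrils, and in the third (n = 4) the microglia were cultured alone. The design asks what contact with neurons, and with neurons carrying aggregated α-synuclein, does to the microglial transcriptome, and the labels say neither how microglia were taken from the neurons nor whether libraries came from separate cultures, so that p-values measure the spread between these libraries, which may be technical.

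Libraries were made with a kit that reads the 3′ ends of polyadenylated transcripts, and held 8253070 to 16802451 counts on 9157 to 11739 genes. Levels are given as CPM, counts scaled to library size and adjusted by TMM, a method that matches libraries on their bulk of genes. A gene passed the test at a Benjamini-Hochberg (BH) adjusted p below 0.05 in edgeR's quasi-likelihood test, adjusted over the 11276 genes. All 18 microglial markers had counts in each group, with summed levels of 18588 to 24821 CPM with fibril-loaded neurons, 20775 to 25198 CPM with untreated neurons and 17830.4 to 19777 CPM in microglia alone. The 22 neuronal markers summed to 801 to 1234 CPM, 683 to 890 CPM and 1335 to 1580 CPM in the same order, mostly through Basp1, which microglia cultured alone also showed (1262 CPM on average); Snap25, Slc17a6 and Neurod6 had no count in any library. The 15 astrocyte markers, whose cell type is a further source of Apoe, summed to 26.9 to 153 CPM, 41.5 to 159 CPM and 22.4 to 65.7 CPM, with Gjb6 at 0 throughout. The 10 markers of border-associated macrophages, a related myeloid type that handles lipid too, summed to 840.3 to 1355 CPM, 1220.4 to 1539 CPM and 862 to 1158 CPM. Untreated co-cultures thus lay above microglia alone, as they did for the sums of the 18 microglial markers. Lyve1 and Cd209f were at 0 throughout. The ribosomal precursor Rn45s took 10.97% to 17.0% of counts with fibril-loaded neurons, 10.7% to 15.7% with untreated neurons and 14% to 24.8% in microglia alone. Leaving it out of the library sizes and using no TMM moved no log2 fold change of a member by more than 0.033 from the main fit. That value compares 2 ways of scaling and does not measure the effect of Rn45s by itself. The part of these marker levels in the results was not tested.

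Plin2, which coats lipid droplets, was 2.22 times as high with fibril-loaded neurons as in microglia alone and showed no overlap between those groups, and Lpl, which frees fatty acids from lipoproteins, was at 0.488 times the level of microglia alone when untreated neurons were present. Neither passed the test across all genes. Apoe, the export pumps and the cholesterol-esterifying enzyme Soat1 had overlapping values in the 3 groups. In bulk samples such as these, fewer cells of a type and less RNA per cell cannot be told apart. Among the wider lipid genes, the desaturase gene Scd2 and the cholesteryl ester hydrolase gene Nceh1 fell in the co-cultures.

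No member passed with fibril-loaded neurons against microglia alone, where 36 of all genes tested (0.319%) did. With untreated neurons against microglia alone the members gave 0 calls as well, against 72 genes (0.639%), and with the mean of both co-cultures against microglia alone 0, against 116 genes (1.03%). Between the co-cultures neither a member nor any other gene passed (0 genes, 0%). At an unadjusted p below 0.05 edgeR counted 3, 3, 4 and 1 of the 10 members in those 4 comparisons, against 8.14%, 10.3%, 11.3% and 3.95% of all genes tested. Because the members were chosen with earlier results of these data known, these shares are descriptive only. DESeq2, run as an alternative, called 2, 2, 3 and 0 members, against 236, 468, 511 and 187 of all genes tested. It thus called more genes in each comparison than edgeR, which called 36, 72, 116 and 0. The median log2 fold change over the members with at least 10 CPM in both groups was -0.28, 0.18, -0.16 and -0.24, beside -0.03, -0.03, -0.03 and -0.01 for all genes of that level. The first 2 comparisons share the libraries of microglia alone, so the members' values in them are given side by side and are not counted as agreement.

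**Figure D1:**
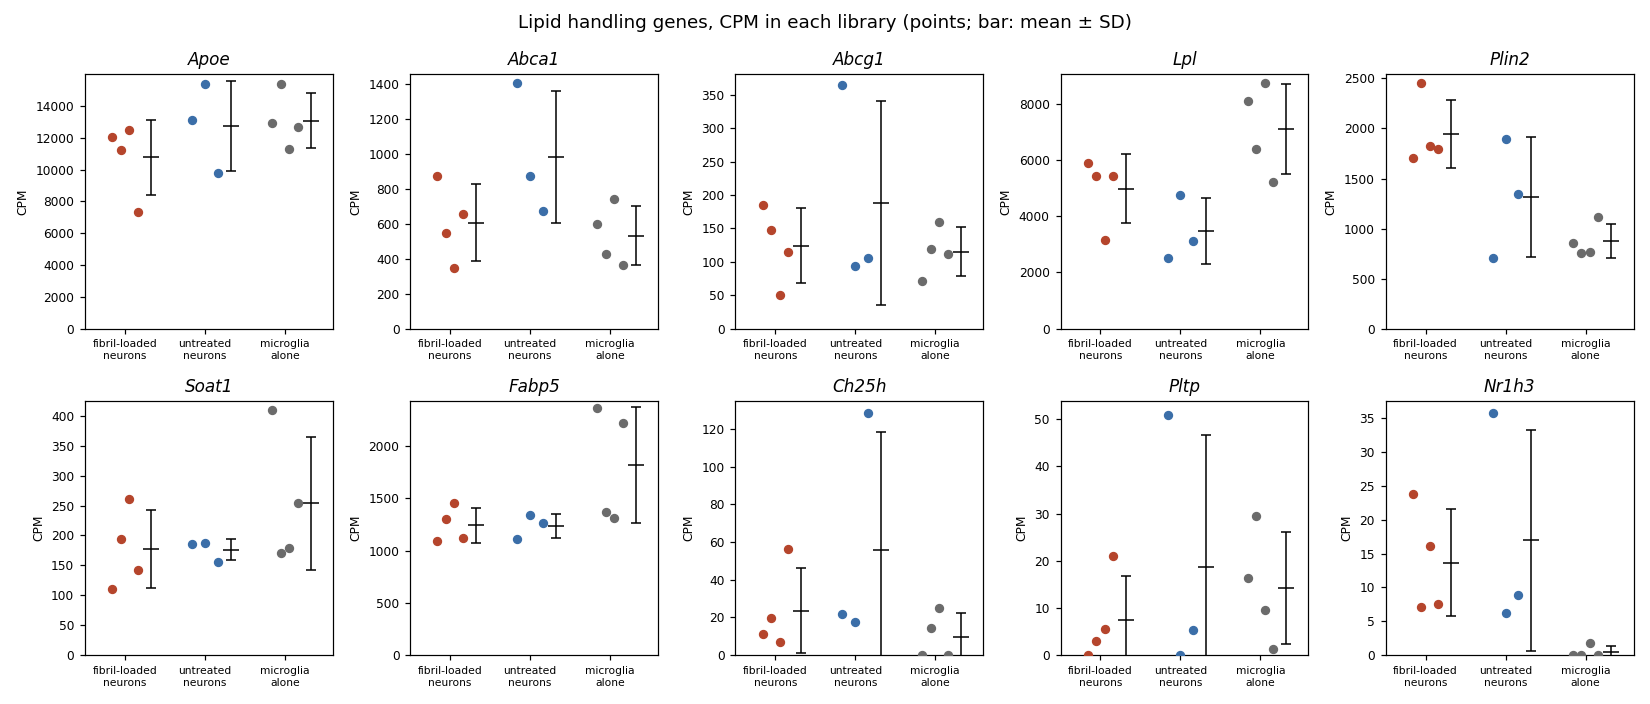
CPM (linear axes from 0) of the 10 genes in each library, with fibril-loaded co-cultures at the left, untreated co-cultures in the middle and microglia alone at the right of each panel; points are libraries in the order of their numbers, and bars are the mean ± SD, cut at 0 where they would run below it. Plin2 in the fibril-loaded co-cultures (1705 to 2455 CPM) lies above microglia alone (757 to 1119.9 CPM), and Nr1h3 is near 0 in microglia alone.

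Apoe encodes the apolipoprotein that carries cholesterol and phospholipid between brain cells. It had 12065, 11217, 12468 and 7319 CPM with fibril-loaded neurons, 13097, 15385 and 9762 CPM with untreated neurons, and 12951, 15392, 11277 and 12687 CPM in microglia alone. The 3 groups overlapped, and the lowest library was fibril-loaded library 4. The log2 fold change was -0.28 (95% interval -0.80 to 0.24) for fibril-loaded neurons and -0.04 (-0.60 to 0.52) for untreated neurons against microglia alone, and -0.24 (-0.80 to 0.31) between the co-cultures. The intervals leave room for changes of up to about those bounds and do not show that Apoe was the same in the 3 conditions. The gene lies on the minus strand of chromosome 7 at 19696244 to 19701310 (GRCm38, RefSeq).

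Abca1 encodes the pump that loads cholesterol and phospholipid onto lipid-poor apolipoproteins. Its level was 875, 545, 349.6 and 656 CPM with fibril-loaded neurons, 1403, 871 and 671 CPM with untreated neurons, and 597, 427, 741 and 365 CPM in microglia alone. Untreated library 1 held the highest value and, of the other two, library 2 lay above the span of microglia alone and library 3 inside it. Its log2 fold change was 0.19 (-0.46 to 0.83) with fibril-loaded neurons and 0.88 (0.19 to 1.58) with untreated neurons against microglia alone, with edgeR BH-adjusted p of 1 and 0.347. Between the co-cultures it was -0.70 (-1.39 to -0.00205; unadjusted p = 0.0494, edgeR BH-adjusted p = 1). Without fibril-loaded library 1 the first of these differences was -0.043, with the opposite sign.

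The promoters of Abca1 and Plin2 are printed below because Abca1 is the textbook target of LXR in this list and Plin2 had the smallest p among the 10 genes. Of the 10 genes, 7 have entries in the RefSeq promoter table (GRCm38.p6, 250 bases before to 50 after the start), with 10 promoters between them. They were searched on both strands for 6 motifs: the strict DR4 repeat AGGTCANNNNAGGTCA, a looser DR4 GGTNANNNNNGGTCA, the nuclear receptor half-site AGGTCA, the DR1 repeat AGGTCANAGGTCA, the sterol element TCACNCCAC and the E box CACGTG. Strict DR4, DR1 and half-site overlap by construction, and the looser DR4, which covers the strict one, was written with the known element of Abca1 in mind. Matches are in capitals, in the direction of transcription.
Abca1: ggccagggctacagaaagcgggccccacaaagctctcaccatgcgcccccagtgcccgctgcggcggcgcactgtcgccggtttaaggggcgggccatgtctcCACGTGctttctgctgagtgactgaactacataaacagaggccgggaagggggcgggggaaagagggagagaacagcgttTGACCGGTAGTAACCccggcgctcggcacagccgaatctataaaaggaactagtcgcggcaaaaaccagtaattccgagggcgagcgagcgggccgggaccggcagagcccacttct
Plin2: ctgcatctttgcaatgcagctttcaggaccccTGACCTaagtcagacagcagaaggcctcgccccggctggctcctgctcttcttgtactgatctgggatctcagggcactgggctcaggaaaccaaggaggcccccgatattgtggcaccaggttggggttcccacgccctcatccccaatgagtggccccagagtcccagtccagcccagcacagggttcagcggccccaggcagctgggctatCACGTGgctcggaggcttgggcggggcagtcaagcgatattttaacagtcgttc
The Abca1 window (chr4:53159846-53160145, minus strand) holds the looser DR4, as its reverse complement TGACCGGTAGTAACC beginning 67 bases before the start, and 1 E box. The Plin2 window (chr4:86670010-86670309, minus strand) holds 1 half-site, as TGACCT, and 1 E box. The other 8 promoters, which belong to Apoe, Soat1, Ch25h, Pltp and Nr1h3, held none of the 6. Of the 32851 promoters in the table, 0.207% hold the looser DR4, 0.0152% the strict one, 16.3% the half-site, 0.0396% the DR1, 1.24% the sterol element and 7.15% the E box. A match describes letters and not a bound site.

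Abcg1 encodes the pump that passes cholesterol to lipid-bearing particles. It stood at 185, 147, 50.8 and 115 CPM with fibril-loaded neurons, 364, 94.1 and 106 CPM with untreated neurons, and 71.3, 119, 159.6 and 112 CPM in microglia alone. Untreated library 1 was again the highest, and the other two untreated libraries lay within the span of microglia alone. Against microglia alone the log2 fold change was 0.11 (-0.78 to 1.00) and 0.70 (-0.25 to 1.66) for fibril-loaded and untreated neurons. The second value was -0.21 without untreated library 1.

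Pltp encodes a phospholipid transfer protein that remodels lipoproteins and is an LXR target. Its values of 0, 3.03, 5.62 and 21.1 CPM with fibril-loaded neurons, 50.9, 0 and 5.38 CPM with untreated neurons, and 16.3, 29.4, 9.64 and 1.42 CPM in microglia alone overlapped. Between untreated co-cultures and microglia alone the log2 fold change was 0.40 (-3.03 to 3.84), and -2.38 without untreated library 1. Pltp (chromosome 2, 164839518 to 164857708, minus strand) overlaps Ctsa on the opposite strand, which had 532 to 799 CPM. The sources used here do not say that strand was used in counting, so how reads from the overlap were assigned is not known. Fibril-loaded library 1 and untreated library 2 had no Pltp count beside 9615 and 7733 counts of Ctsa. The part of Ctsa reads in the other Pltp values was not tested.

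Nr1h3 encodes LXRα, 1 of the liver X receptors that oxysterols activate. It was counted in every co-culture library, with 23.7, 7.11, 16.1 and 7.62 CPM with fibril-loaded neurons and 35.7, 6.17 and 8.93 CPM with untreated neurons. Microglia alone had 0, 0, 1.86 and 0 CPM, that is 21 counts in library 3 and none in the other three, where a count of 0 allows up to 0.235, 0.297 and 0.250 CPM (3 counts, counting error only). The co-cultures therefore did not overlap with microglia alone, a separation in that direction seen in 2.7% of all genes tested with fibril-loaded neurons, 4.9% with untreated neurons and 1.21% with both. A log2 fold change of 4.85 (1.08 to 8.62) was fitted with fibril-loaded and of 5.16 (1.26 to 9.06) with untreated neurons, with edgeR BH-adjusted p of 0.448 and 0.312. These fitted values rest on the 21 counts of 1 library, and Nr1h3 entered the test only through the co-cultures, where it was higher. Without that library edgeR called the untreated neurons and both co-cultures, but against a group with no count, so those calls are no support. DESeq2 gave adjusted p of 0.0353, 0.0218 and 0.00414 for fibril-loaded neurons, untreated neurons and both, with the same dependence on those counts. Between the co-cultures the log2 fold change was -0.31 (-3.74 to 3.12). Nr1h2, the other LXR gene, averaged 36.3 ± 19.3 CPM with fibril-loaded neurons, 30.2 ± 4.92 CPM with untreated neurons and 45.4 ± 20.8 CPM in microglia alone (SD). Its log2 fold changes against microglia alone were -0.32 and -0.59, and neither passed. Microglia alone thus had counts for an LXR gene.

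Ch25h encodes cholesterol 25-hydroxylase, an interferon-inducible enzyme that makes an oxysterol. It had 11.3, 19.5, 7.21 and 56.4 CPM with fibril-loaded neurons, 21.9, 17.6 and 128 CPM with untreated neurons, and 0, 14.4, 25.2 and 0 CPM in microglia alone. Library 3 of the untreated and library 4 of the fibril-loaded co-cultures stood above all others. Against microglia alone it had log2 fold changes of 1.26 (-1.28 to 3.79) and 2.50 (-0.24 to 5.24), neither passing, and the sign of the value between the co-cultures, -1.24 (-3.92 to 1.43), turned to 0.26 without untreated library 3.

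Lpl encodes lipoprotein lipase, which cultured microglia make in quantity and which releases fatty acids for uptake. Its level was 5888, 5422, 3171 and 5442 CPM with fibril-loaded neurons, 2507, 4774 and 3106 CPM with untreated neurons, and 8089, 6384, 8732 and 5203 CPM in microglia alone. Every untreated co-culture lay below every library of microglia alone, which 5.45% of all genes tested also did, while 3 of the 4 fibril-loaded libraries lay above the lowest library of microglia alone. The log2 fold change was -1.04 (-1.66 to -0.41; edgeR BH-adjusted p = 0.151) with untreated neurons and -0.51 (-1.08 to 0.06; adjusted p = 0.706) with fibril-loaded neurons. The difference between the co-cultures, 0.52 (-0.09 to 1.14), did not pass. DESeq2 called the lower Lpl of untreated co-cultures (adjusted p = 0.00274), as did edgeR with no filter on low counts (0.027), and the log2 value ran from -1.34 to -0.85 as single libraries were left out.

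Fabp5 encodes a fatty acid binding protein that ferries lipids inside the cell. It had 1091, 1299, 1453 and 1119 CPM with fibril-loaded neurons, 1107, 1338 and 1260.0 CPM with untreated neurons, and 2359.6, 1368, 1314 and 2219.5 CPM in microglia alone. In microglia alone, libraries 1 and 4 stood above every co-culture, and libraries 2 and 3 lay among the co-cultures. Its log2 fold change against microglia alone was -0.55 (-1.07 to -0.03) and -0.56 (-1.12 to 0.01), with edgeR BH-adjusted p of 0.59 and 0.487, and between the co-cultures 0.01 (-0.55 to 0.57). The annotation (GENCODE M21) holds 2 gene models named for Fabp5, of which 1 is in the count table, and reads shared with a near-identical copy would be counted uncertainly.

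Soat1 encodes the enzyme that esterifies cholesterol for storage. Its values were 111, 194, 261 and 143 CPM with fibril-loaded neurons, 186, 188 and 156 CPM with untreated neurons, and 410.2, 171, 179 and 254 CPM in microglia alone, where library 1 was the highest of all. The log2 fold change against microglia alone was -0.52 for both co-cultures (-1.19 to 0.16 with fibril-loaded and -1.26 to 0.21 with untreated neurons), and 0.01 (-0.72 to 0.73) between them. None passed.

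Plin2 encodes perilipin-2, the coat protein of lipid droplets, whose level follows droplet content in many cells. It had 1705, 2455, 1827 and 1794 CPM with fibril-loaded neurons, 706, 1897 and 1344 CPM with untreated neurons, and 858, 757, 762 and 1119.9 CPM in microglia alone. All fibril-loaded libraries lay above all libraries of microglia alone, a separation upward that 2.7% of all genes tested shared. Untreated library 1 was the lowest of all 11, and the other two were above microglia alone. The log2 fold change was 1.15 with fibril-loaded neurons (SE 0.281, 0.57 to 1.74, a fold of 1.48 to 3.33; unadjusted p = 0.000496, edgeR BH-adjusted p = 0.1). With untreated neurons it was 0.59 (-0.03 to 1.21; adjusted p = 0.502), and between the co-cultures 0.56 (-0.07 to 1.19; unadjusted p = 0.0769, adjusted p = 1).

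The call on Plin2 with fibril-loaded neurons moved with the processing while its size did not. The log2 value ran from 1.02 to 1.30 as single libraries were left out and from 1.14 to 1.16 under the other alternatives. The edgeR BH-adjusted p was 0.0423 without untreated library 1 and 0.00575 with no filter on low counts, and DESeq2 gave 0.00101. For both co-cultures against microglia alone the log2 value was 0.87 (0.34 to 1.40; edgeR BH-adjusted p = 0.124), and without untreated library 1 it was 1.03 with an adjusted p of 0.048.

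**Figure D2:**
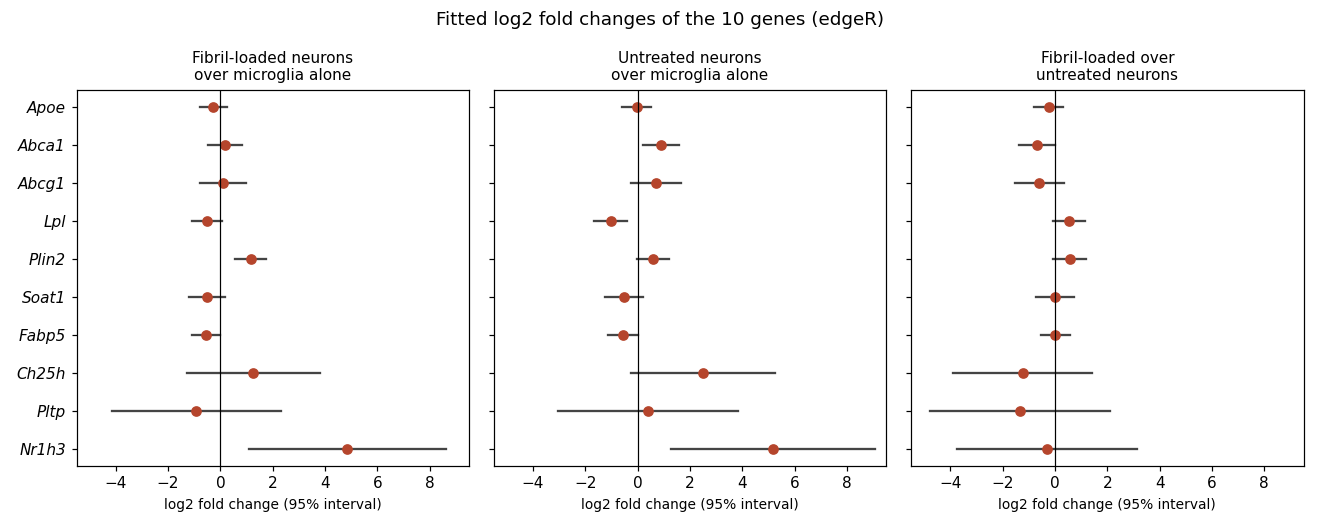
Fitted log2 fold changes of the 10 genes in edgeR (points) with their 95% intervals (lines), for fibril-loaded neurons over microglia alone (left), untreated neurons over microglia alone (middle) and fibril-loaded over untreated neurons (right). Intervals clear of 0 belong to Plin2, Fabp5 and Nr1h3 at the left, to Abca1, Lpl and Nr1h3 in the middle and to Abca1 at the right; they are not adjusted over genes.

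A single library set many of the extremes. Untreated library 1 had the highest of the 11 values for Abca1, Abcg1, Pltp and Nr1h3 and the lowest for Lpl and Plin2, 6 of the 10 genes. With zeros that several libraries share left out, each of the others was an extreme for at most 2 genes; library 1 of microglia alone, the highest for Soat1 and Fabp5, also shared such zeros for Ch25h and Nr1h3. The neuronal marker sum of untreated library 1, 683 CPM, was the lowest of the 11, and its microglial marker sum of 23521 CPM was the third highest. The part of either sum in the values of untreated library 1 was not tested.

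**Figure D3:**
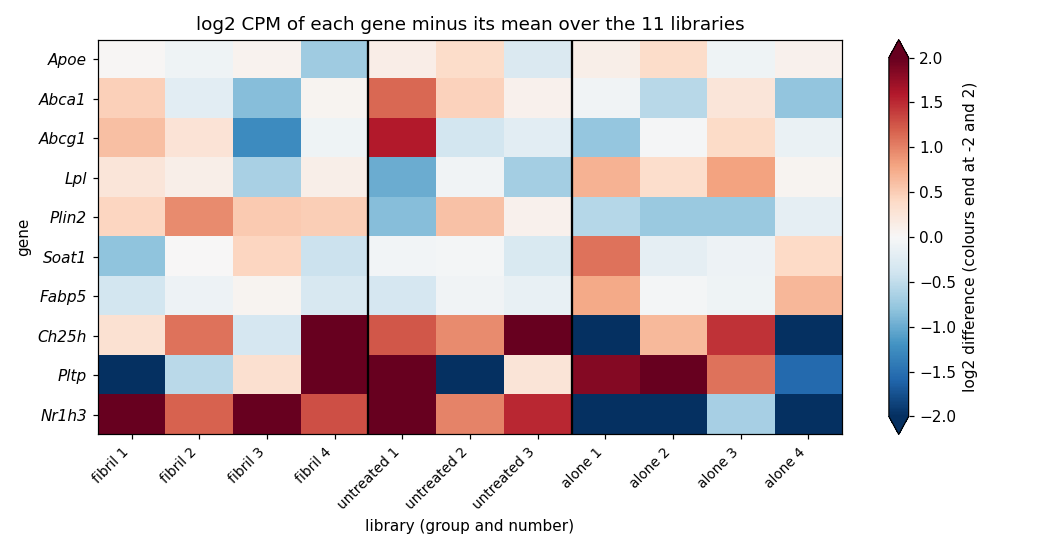
Log2 CPM of each gene minus its mean over the 11 libraries (colour, ending at -2 and 2), with genes in rows and libraries in columns ordered as fibril-loaded, untreated and alone. Untreated library 1 is red for Abca1, Abcg1, Pltp and Nr1h3 and blue for Lpl and Plin2, and Plin2 is red in the 4 fibril-loaded libraries.

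The genes most like each member were sought by the root mean square difference in log2 CPM over the 11 libraries, each gene centred on its own mean, among 7357 genes of at least 10 CPM. Plin2 was nearest to Rhoc (0.255), Slc3a2 (0.271) and Spty2d1 (0.297), where its median distance to all candidates was 0.982. Lpl was nearest to Naa50 (0.199), Fam111a (0.210) and Dab2 (0.219), with a median of 0.935. Apoe, which varied less, was nearest to Clptm1 (0.217), Nedd8 (0.218) and Sdhb (0.222), with a median of 0.814. For Abca1 the nearest were Rnf213 (0.306), Cebpz (0.334) and Rb1 (0.344), and for Fabp5 Snrpb2 (0.134), Atp6v1f (0.180) and Rpl6 (0.182). Nr1h3, mostly 0 in microglia alone, was nearest to Gpr84 (1.08), Ifi205 (1.10) and Cxcl10 (1.13), with a median of 2.98.

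Among wider lists of lipid genes, which include the members, 2 genes passed the test, both lower with neurons. They were 1 of 21 tested LXR target genes and 1 of 22 tested genes of droplet coat and turnover. Over both co-cultures 1.03% of all genes tested passed, so these calls are not read as a result about lipid genes. Scd2, a stearoyl-CoA desaturase that supplies monounsaturated fatty acids, had 128, 126, 107 and 81.3 CPM with fibril-loaded neurons, 143, 99.5 and 197 CPM with untreated neurons, and 344, 401, 257 and 272 CPM in microglia alone. All co-cultures lay below all libraries of microglia alone, a separation downward seen in 1.45% of all genes tested. It fell by 1.53 on the log2 scale with fibril-loaded neurons (SE 0.295, edgeR BH-adjusted p = 0.0193) and by 1.32 over both co-cultures (SE 0.251, adjusted p = 0.00986), and its value with untreated neurons alone was -1.12 (adjusted p = 0.144). The call with fibril-loaded neurons was lost without fibril-loaded library 3 (0.0878) or 4 (0.0873) and without library 1 (0.0559) or 2 (0.0755) of microglia alone, and that over both co-cultures was kept whichever library was left out. Scd2 is also expressed in neurons and oligodendrocytes, and the neuronal marker sums given above did not overlap between microglia alone and either co-culture and were higher in microglia alone, mostly through Basp1. The 14 oligodendrocyte lineage markers summed to 163 to 357 CPM with fibril-loaded neurons, 284 to 328 CPM with untreated neurons and 187 to 305 CPM in microglia alone, with overlap. The part of either in the lower Scd2 was not tested.

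Nceh1 encodes a hydrolase that frees cholesterol from its esters in macrophages. It had 162, 184, 156 and 189 CPM with fibril-loaded neurons, 143, 151 and 158 CPM with untreated neurons, and 296, 302, 302 and 437 CPM in microglia alone, again with no overlap (1.45% of all genes tested). It fell by 1.05 on the log2 scale over both co-cultures (SE 0.220, edgeR BH-adjusted p = 0.0208), while the values for fibril-loaded (-0.95, adjusted p = 0.144) and untreated neurons (-1.15, adjusted p = 0.0656) did not pass alone in edgeR. DESeq2 called both of these (adjusted p = 0.00443 and 0.000385), and limma on the normalized table called the second (0.0486). The edgeR call over both co-cultures was lost without untreated library 1 (0.0538) or library 4 of microglia alone (0.0879).

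**Figure D4:**
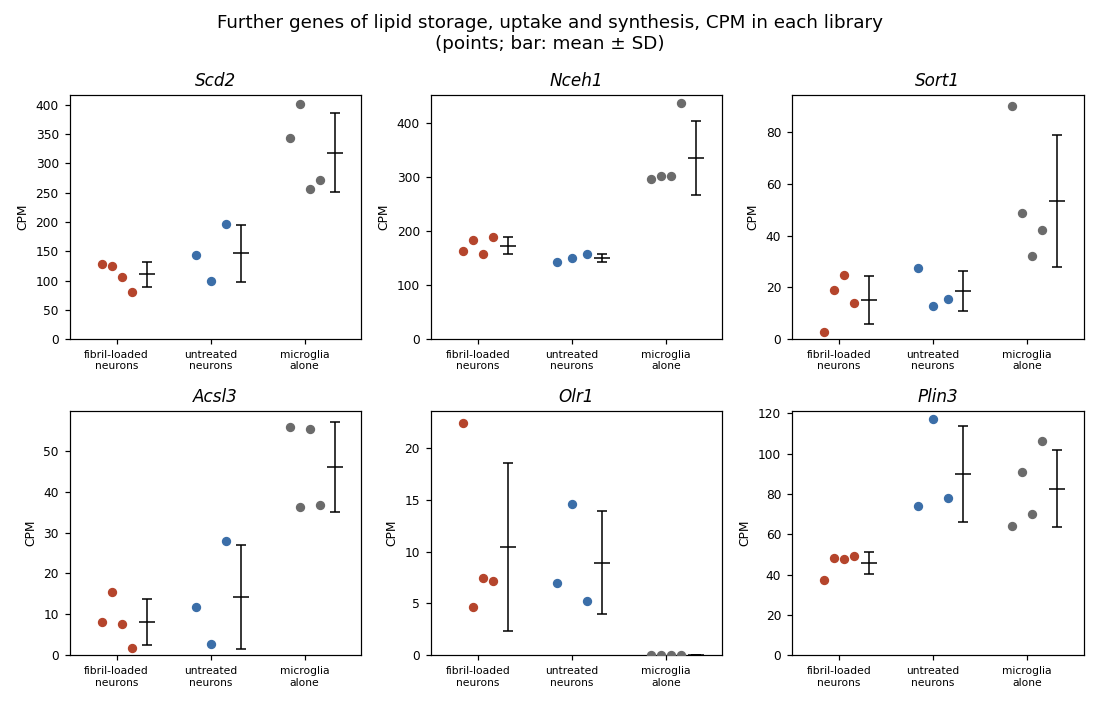
CPM (linear axes from 0) of 6 further lipid genes in each library, with fibril-loaded co-cultures at the left, untreated co-cultures in the middle and microglia alone at the right; points are libraries and bars the mean ± SD. Scd2 and Nceh1, the pair that passed, lie lower in the 7 co-culture libraries than in the 4 of microglia alone, and Olr1 has no count in microglia alone.

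The remaining lists gave no calls for both co-cultures against microglia alone. The apolipoprotein list had 6 tested genes, of which Apoe, Apoc1 and Apoc2 encode lipoprotein components, while Apobec1 encodes an mRNA-editing enzyme and Apoo and Apool mitochondrial inner membrane proteins. None of the 6 passed, with 5 fitted values above 0; between the co-cultures all 6 were below 0 (median log2 fold change -0.18). Of 15 tested receptors and uptake genes none passed, 9 being below 0. Olr1, an oxidized lipoprotein receptor, had 22.5, 4.66, 7.49 and 7.15 CPM with fibril-loaded neurons, 6.94, 14.6 and 5.27 CPM with untreated neurons and no count in microglia alone. Over a floor of 3 counts per library (counting error only), its group mean was 39.9-fold with fibril-loaded and 34.1-fold with untreated neurons. It missed the threshold (edgeR BH-adjusted p = 0.116 and 0.0883, and 0.0593 for both). Olr1 entered the test only through the co-cultures. The first of these folds was 24.6 without fibril-loaded library 1, and the second 23.3 without untreated library 2, alternatives added after the data were seen. Sort1, a sorting receptor that binds lipoprotein lipase and apolipoproteins, averaged 15.1 ± 9.36 CPM with fibril-loaded neurons, 18.5 ± 7.74 CPM with untreated neurons and 53.3 ± 25.4 CPM in microglia alone (SD), with no overlap between co-cultures and microglia alone and an edgeR BH-adjusted p of 0.192. Such a separation downward was seen in 1.45% of all genes tested, and Sort1 was named for its small p within the list.

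None of 18 tested genes of sterol export and oxysterol synthesis passed. Over both co-cultures the 11 with at least 10 CPM in each group had a median log2 fold change of -0.15. Between the co-cultures 15 of the 18 were below 0, with a median of -0.39 over the 13 of that level. Stard3, which moves cholesterol out of late endosomes, averaged 95.9 ± 19.7, 112 ± 42.2 and 66.8 ± 20.1 CPM in fibril-loaded co-cultures, untreated co-cultures and microglia alone (SD). The transporter gene Abca9 averaged 43.6 ± 6.69, 45.8 ± 30.3 and 74.8 ± 30.5 CPM. Scd2 was the 1 of 21 LXR target genes that passed, with 11 of the 21 above 0. The median over the 15 with at least 10 CPM in each group was 0.14. Of 16 tested nuclear receptors and coregulators, 11 were below 0, with a median of -0.30 over the 10 of that level. Among the 11 was the corepressor gene Ncor1, with 192 ± 85.8, 168 ± 15.2 and 288 ± 91.6 CPM in the 3 groups in the same order. None of these list members other than Scd2 passed.

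Nceh1 was the 1 of 22 tested genes of droplet coat and turnover that passed, with 14 of the 22 below 0. The median over the 18 with at least 10 CPM in each group was -0.21. Acsl3, an acyl-CoA synthetase that sits on growing droplets, had 8.11, 15.4, 7.68 and 1.66 CPM with fibril-loaded neurons, 11.9, 2.86 and 27.9 CPM with untreated neurons, and 55.7, 36.2, 55.3 and 36.8 CPM in microglia alone, without overlap and without passing (edgeR BH-adjusted p = 0.167 for both co-cultures). Of all genes tested, 1.45% separated downward in this way, and Acsl3 was also named for its small p within the list. Plin3, the other perilipin that the naming rule took, averaged 45.8 ± 5.48 CPM with fibril-loaded neurons, below the 89.8 ± 23.8 CPM with untreated neurons and the 82.7 ± 19.3 CPM of microglia alone. Its log2 fold change between the co-cultures was -0.97 (unadjusted p = 0.0143, edgeR BH-adjusted p = 1), where that of Plin2 was 0.56.

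Of the 7 tested lipases and regulators, 5 were below 0 over both co-cultures and none passed. Only 3 of them had at least 10 CPM in each group, and their median was -0.54. Angptl4, a secreted inhibitor of lipoprotein lipase, had 0.485, 10.3, 0 and 20.9 CPM with fibril-loaded neurons, 67.2, 19.9 and 16.4 CPM with untreated neurons, and 0, 1.78, 7.25 and 0 CPM in microglia alone. It was higher in every untreated co-culture than in any library of microglia alone, as were 4.9% of all genes tested, with an edgeR BH-adjusted p of 0.468. Of 20 tested genes of fatty acid binding, transport and oxidation, 11 were below 0 and none passed. Cpt1a, which admits fatty acids to mitochondria for oxidation, averaged 80.2 ± 36.3, 83.6 ± 33.7 and 35.9 ± 9.48 CPM in the 3 groups (edgeR BH-adjusted p = 0.156 for both co-cultures). Fabp4, a binding protein of fat cells and macrophages, averaged 54.4 ± 30.6, 57.3 ± 15.7 and 23.5 ± 22.1 CPM.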

How the data were processed

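For 11 libraries, whole-number counts by gene symbol were deposited by the authors, with a normalized version, treated here as a score and used in 1 alternative. STAR, Partek, DESeq2 and the build mm10 are listed, without versions, in the submitters' processing notes; the kit reads transcript 3′ ends, per the labels' protocols. Strand use in counting and removal of duplicates are not given in the sources used here. Groups came from the treatment label, and replicate numbers only follow accession order. Tests used edgeR 4.0.16 under R 4.3.3 (TMM, filterByExpr, quasi-likelihood test, two-sided, group as the only term, all 11 libraries in 1 fit, BH adjustment over 11276 genes). Of 16934 genes, 2828 had no count. CPM use TMM-adjusted library sizes, mean CPM of lipid genes carry SDs, and log2 CPM used a prior count of 2. Intervals (95%) come from edgeR's standard error. List medians leave out genes under 10 CPM in either group. The common biological coefficient of variation was 1.15.

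Named outside the members were list genes passing in any comparison, the 2 with the smallest p for both co-cultures and the 1 between the co-cultures. Nr1h2 was named in addition, as the other LXR gene. Members and lists were chosen with earlier results of these data known. Alternatives were RLE scaling, library sizes without Rn45s and without TMM, no filter on low counts, a mean of at least 5 CPM, DESeq2 1.42.0, limma 3.58.1 on log2(normalized value + 1), fits of the compared groups only, a replicate block and leaving out each library. Code was tested on simulated counts. Coordinates and promoters are RefSeq GRCm38.p6, the mm10 build.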

Additional observations from a re-analysis of the deposited data

Results flagged for a closer look

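Among 20 groups of 4 libraries examined (the 10 genes in fibril-loaded co-cultures and in microglia alone), 2 held a library that stood far from its 3 companions; about 1 in 20 groups does so by chance. Plin2 was at 2455 CPM in fibril-loaded library 2, against 1705 to 1827 CPM in the other three. Nr1h3 was at 1.857 CPM in library 3 of microglia alone, against no count in the other three. Any count beside 3 zeros would be flagged, so the rate of 1 in 20 does not apply to this group.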

How the results depend on the processing

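Under RLE scaling, library sizes without Rn45s and a mean of at least 5 CPM, no member passed in any comparison; limma on the normalized table gave none either. The cause of the differences below was not tested.

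With no filter on low counts, 1 member passed with fibril-loaded neurons against microglia alone, 1 with untreated neurons and 2 with both; DESeq2 called 2, 2 and 3. Genes called with fibril-loaded neurons numbered 164 with no filter, 236 in DESeq2, 66 with the block and 23 to 42 without single libraries, against 36. For untreated neurons, against 72, they were 234, 468 in DESeq2, 47 at a mean of at least 5 CPM, 41 with the compared groups only, and 32 to 76 without single libraries. For both, against 116, they were 341, 511 in DESeq2, 177 with the block and 55 to 106. Between the co-cultures, against 0, they were 5, 187 in DESeq2 and 0 to 1. Leaving out single libraries gave 0 to 1 members in each comparison with microglia alone and 0 between the co-cultures. The fit of compared groups only was not run for both co-cultures, where it is the main fit.

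Library codes in the titles run in sevens that hold 1 library of each group, except that 1 run has no untreated co-culture. Same-run correlations of deviations ranged from -0.106 to 0.321, and those between different runs from -0.233 to 0.21. These overlapping ranges do not decide whether a run marks a shared culture or day, which the labels do not say. The main fit did not treat the runs as pairs. With these runs as a replicate block, 1 member passed with fibril-loaded neurons, namely Plin2 (1.14, edgeR BH-adjusted p = 0.0293).

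Signs of values that did not pass turned as follows. With fibril-loaded neurons against microglia alone, Abcg1 was -0.015 with the block and -0.145 to 0.369 without single libraries, and Abca1 -0.043 to 0.406. With untreated neurons Pltp was -1.668 in limma, -0.054 with the block and -2.380 to 1.053 without single libraries, Abcg1 -0.207 to 1.025 and Apoe -0.195 to 0.122. For both, Abcg1 was -0.041 to 0.609 and Pltp -1.641 to 0.398. Between the co-cultures Soat1 was -0.066 in limma and -0.151 with the block, Fabp5 -0.002 and -0.049, and Nr1h3 0.341 with the block. Without single libraries these and others ran there as follows: Abcg1 -0.917 to 0.332, Soat1 -0.242 to 0.175, Fabp5 -0.078 to 0.068, Ch25h -2.143 to 0.259, Pltp -2.700 to 1.479 and Nr1h3 -0.721 to 0.868.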

Other observations

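The ratio of Plin2 to Lpl within a library, formed after the values had been seen and not tested, was 0.29, 0.453, 0.576 and 0.33 with fibril-loaded neurons, 0.282, 0.397 and 0.433 with untreated neurons, and 0.106, 0.119, 0.0873 and 0.215 in microglia alone. It was higher in every co-culture library than in any library of microglia alone, and the co-cultures overlapped. The ratio is built from the Plin2 and Lpl values given above, so its separation is no further support. How many other gene pairs separate in this way was not counted.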
